A study of Mus musculus with 18 samples.

Results

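The comparison described here set PCBP2 knockdown directly against PCBP1 knockdown in mouse fetal liver hematopoietic progenitors at Day 0, before erythroid differentiation was induced. It rests on 6 of the 18 libraries of the series, the 3 labelled Day 0 PCBP2 and the 3 labelled Day 0 PCBP1, which were chosen by their titles. The cells of all groups came from E14.5 fetal livers of CD-1 mice, were enriched for hematopoietic progenitors, and were infected at once with MSCV-PIG retroviruses carrying short hairpin RNAs, puromycin resistance and GFP. They were then kept for 48 hours in expansion medium with erythropoietin, stem cell factor and dexamethasone, and total RNA was sequenced. In the PCBP2 knockdown the 3 replicates are hairpins 1, 3 and 4 against Pcbp2. In the PCBP1 knockdown they are hairpins 1, 3 and 4 against Pcbp1, so the same number does not mean the same hairpin. Controls, which stayed outside the test and serve as background, are 2 libraries with scrambled hairpins and 1 with a luciferase hairpin. Each replicate is thus another hairpin in a primary progenitor culture. Separate cultures or litters per library, and selection for infected cells, are not stated in the labels, so the p-values reflect how far these libraries spread, which may in part be technical. Values of 3 libraries are given for hairpins 1, 3 and 4 in each knockdown, and for the scrambled, second scrambled and luciferase library in the controls.

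PCBP1 and PCBP2, also called hnRNP E1 and hnRNP E2, are paralogous RNA-binding proteins with KH domains that prefer single-stranded runs of cytosine. They are known for roles in alternative splicing, mRNA stability and translation, including the stability of alpha-globin mRNA in erythroid cells, and both also act as cytosolic iron chaperones. Pcbp1 is an intronless gene, and its protein is closely related to that of Pcbp2, so a side-by-side comparison shows where loss of one paralog leaves a different transcriptome from loss of the other.

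The 6 libraries held between 30635061 and 54096339 estimated reads, the largest being hairpin 3 of the PCBP2 knockdown. The first principal component of these libraries held 28% of the variance and placed the PCBP2 knockdown (-26.5 to -3.18) apart from the PCBP1 knockdown (10 to 22.3). All 10 erythroid progenitor markers examined were detected, and their summed level overlapped between the knockdowns, at 3820 to 4120 CPM (counts per TMM-scaled library size) in PCBP2 knockdown and 3740 to 3930 CPM in PCBP1 knockdown. No marker of macrophages, megakaryocytes, granulocytes, mast cells, hepatocytes, endothelial and stromal cells or lymphoid cells passed the test. Summed levels of 2 of these lists did not overlap between the knockdowns. The 13 hepatocyte markers summed to 24.6, 21.7 and 20.8 CPM in PCBP2 knockdown, 17.7, 10.2 and 13.6 CPM in PCBP1 knockdown and 20.2 to 23.8 CPM in controls. Among them, Apoa1 was at 17.77, 11.99 and 11.93 CPM in PCBP2 knockdown and 9.111, 3.554 and 5.558 CPM in PCBP1 knockdown. Apoa1 was looked at after its values were seen and was not called (log2 1.193, SE 0.273, edgeR adjusted p = 0.066). The gap in the hepatocyte sum rested largely on this gene and does not show a shift across the list. The 15 macrophage and monocyte markers summed to 192 to 221 CPM in PCBP2 knockdown, 222 to 250 CPM in PCBP1 knockdown and 202 to 254 CPM in controls, with Clec4f at 0 in the 6 knockdown libraries. The part of such cells in the results below was not tested. In bulk RNA, fewer cells of a type and less RNA per cell cannot be told apart.

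The hairpin targets were measured first, since they check the labels. Pcbp2 (ENSMUSG00000056851, GRCm38 chromosome 15, 102470539 to 102500061, plus strand) was at 119, 117 and 123 CPM in PCBP2 knockdown, 471, 483 and 491 CPM in PCBP1 knockdown and 476, 478 and 501 CPM in controls. The 3 Pcbp2 hairpins left between 24.1% and 25.3% of the control mean, and the PCBP1 knockdown kept 97.1% to 101% of it. Pcbp2 fell by 2.01 on the log2 scale between the knockdowns (SE 0.05, edgeR quasi-likelihood adjusted p = 3.77e-09).

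Pcbp1 (ENSMUSG00000051695, chromosome 6, 86524492 to 86526321, minus strand) was at 325, 297 and 353 CPM in PCBP2 knockdown, 24.4, 101 and 40.7 CPM in PCBP1 knockdown and 313, 330 and 345 CPM in controls. The Pcbp1 hairpins were thus less even than the Pcbp2 hairpins, with 7.41%, 30.5% and 12.4% of the control mean left by hairpins 1, 3 and 4. Between the knockdowns Pcbp1 was higher in PCBP2 knockdown by 2.55 (SE 0.37, edgeR adjusted p = 0.0123), a call that was lost without PCBP2 hairpin 1 or without PCBP1 hairpin 4. No other family member examined was called. Hnrnpk, whose protein hnRNP K is a related poly(C)-binding protein, was at 1075, 1089 and 1078 CPM in PCBP2 knockdown and 1027, 1087 and 1065 CPM in PCBP1 knockdown (log2 0.03, SE 0.04). Pcbp3 (log2 0.00, SE 0.19) and Pcbp4 (0.14, SE 0.14) were expressed at 4.57 to 11.9 CPM in the 6 libraries.

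**Figure D1:**
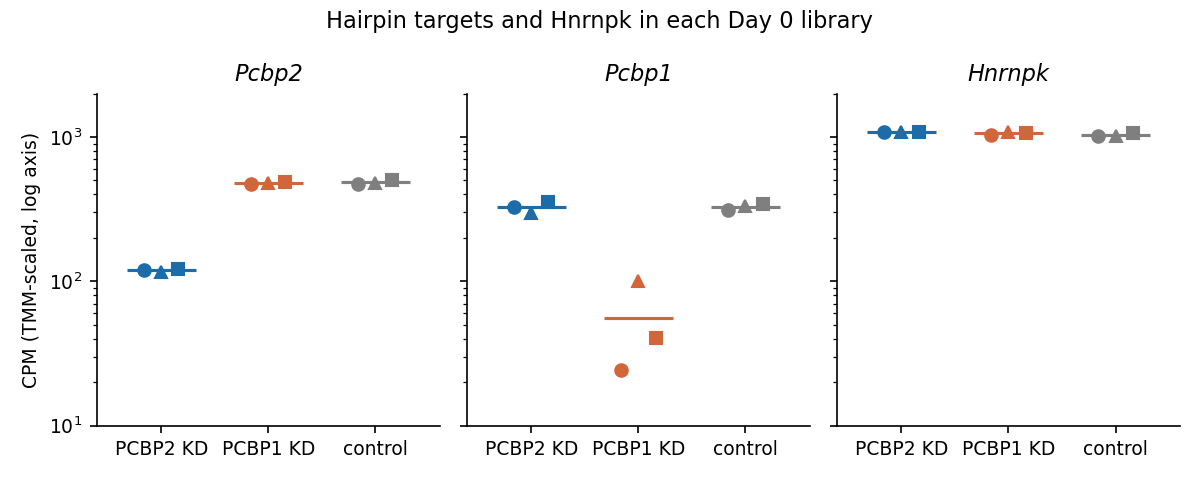
Levels of the hairpin targets Pcbp2 and Pcbp1 and of Hnrnpk in CPM on a log axis, for PCBP2 knockdown, PCBP1 knockdown and controls at Day 0. Circles are hairpin 1 or the first scrambled control, triangles hairpin 3 or the second scrambled control, squares hairpin 4 or the luciferase control, and bars are group means. Pcbp2 sits at 117 to 123 CPM in PCBP2 knockdown, and Pcbp1 spreads between 24.4 and 101 CPM in PCBP1 knockdown.

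Across the transcriptome, the difference between the paralogs was modest and mostly one-sided. Of 15386 genes tested, 160 were higher and 36 lower in PCBP2 knockdown at an adjusted p under 0.05, which is 1.27% of the genes tested (1.04% higher and 0.234% lower). The median log2 fold change was 0.53 among the higher genes, -0.46 among the lower ones and 0.00 over all genes, and 23 higher and 5 lower genes differed by at least 1 on the log2 scale. In all 196 the libraries of the 2 knockdowns did not overlap, against 19.0% of all genes tested. The calls were made on these same libraries, so the lack of overlap adds no support to them. The counts of called genes rested on single libraries. They were 13 higher and 4 lower without PCBP2 hairpin 1, 13 and 4 without PCBP1 hairpin 4, 30 and 10 without PCBP1 hairpin 1, and 360 and 48 without PCBP2 hairpin 3. Of the 196 genes, 17 were still called without PCBP2 hairpin 1 and 16 without PCBP1 hairpin 4, and apart from 12 genes given further on, every call named here was lost when 1 library was left out.

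**Figure D2:**
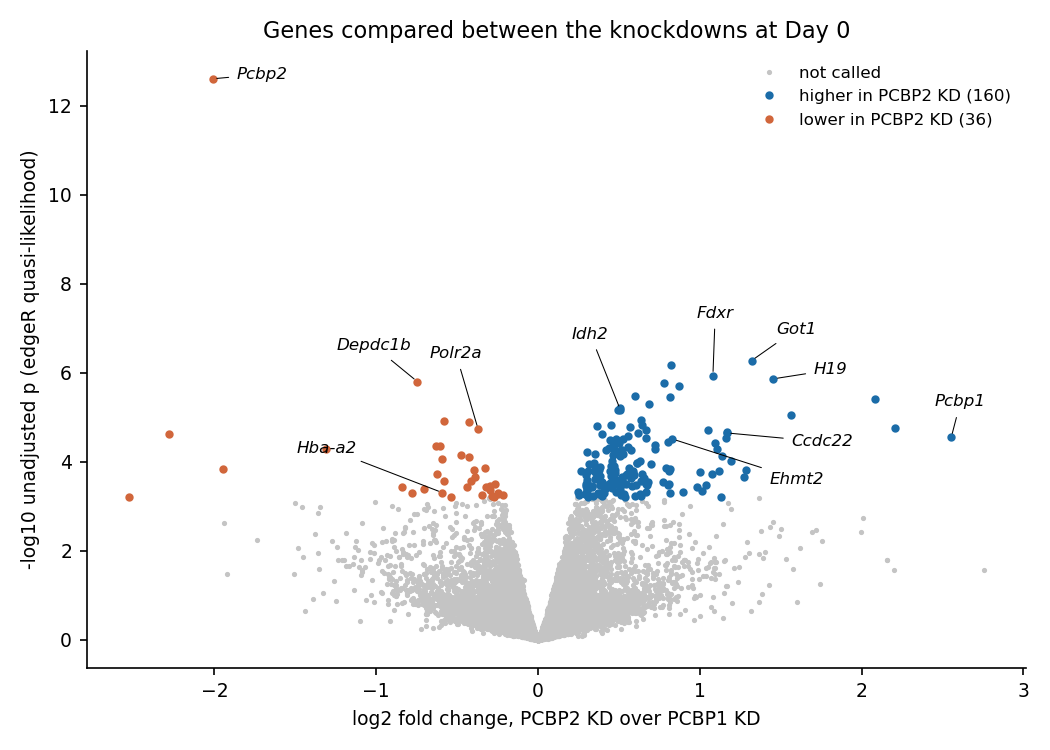
Each point is 1 of 15386 genes, with the log2 fold change of PCBP2 knockdown over PCBP1 knockdown on the horizontal axis and -log10 of the unadjusted edgeR p on the vertical axis. Blue points are the 160 genes higher and orange points the 36 genes lower in PCBP2 knockdown. Pcbp2 lies far above all other genes.

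The position of the controls showed in which knockdown these genes had moved. For 151 of the 160 higher genes the PCBP2 knockdown mean was nearer the control mean than the PCBP1 knockdown mean was, against 63.1% of all genes tested. In 145 of the 160, all 3 PCBP1 knockdown libraries lay outside the control range (27.9% of all genes), and in 36 all 3 PCBP2 knockdown libraries did (14.1% of all genes). The 36 lower genes were mixed, with the PCBP2 knockdown nearer the controls in 23, all 3 PCBP1 libraries outside the control range in 24 and all 3 PCBP2 libraries outside it in 18. The weakest Pcbp1 hairpin also stood out within its group. Hairpin 3 had the highest value of the 3 PCBP1 libraries in 107 of the 160 higher genes (66.9%), against 32.7% of all genes tested. Hairpin 3 of the PCBP2 knockdown, the deepest library, had the lowest value of its group in 97 of them (60.6%), against 33.8% of all genes. The part of hairpin strength or depth in these calls was not tested.

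Among genes with a mean log2 CPM of at least 2, those with the largest higher values had near-control levels in PCBP2 knockdown and low levels in PCBP1 knockdown. Got1, the cytosolic aspartate aminotransferase of the malate-aspartate shuttle (ENSMUSG00000025190, chromosome 19, 43499752 to 43524605), was at 79.3, 84.95 and 85.95 CPM in PCBP2 knockdown, 27.1, 42.0 and 31.1 CPM in PCBP1 knockdown and 91.1, 76.7 and 81.5 CPM in controls. The groups of the knockdowns did not overlap, and all 3 PCBP1 libraries were below the controls. Got1 was higher in PCBP2 knockdown by 1.32 (SE 0.13, edgeR adjusted p = 0.00337). H19, an imprinted noncoding RNA (chromosome 7, 142575529 to 142578143), was at 14.9, 14.6 and 10.7 CPM in PCBP2 knockdown, 4.17, 5.01 and 5.47 CPM in PCBP1 knockdown and 13.8, 9.22 and 10.1 CPM in controls. It was higher by 1.455 (SE 0.15, edgeR adjusted p = 0.00365), again with every PCBP1 library below every control.

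Ccdc22, a subunit of the endosomal COMMD complex (chromosome X, 7593809 to 7605517), was at 38.3, 32.01 and 41.0 CPM in PCBP2 knockdown, 13.0, 21.8 and 14.6 CPM in PCBP1 knockdown and 35.3, 39.3 and 41.1 CPM in controls. Its log2 value was 1.17 (SE 0.17, edgeR adjusted p = 0.0111). It was the 1 member called of 21 tested genes of the COMMD, CCDC22, CCDC93 and retriever complex, whose median was -0.01. Of all genes tested 1.27% were called, and this share also stands beside the counts of called list members below. Galk1, the galactokinase that starts galactose breakdown, was at 49.15, 31.0 and 41.8 CPM in PCBP2 knockdown, 15.85, 23.35 and 17.2 CPM in PCBP1 knockdown and 52.8, 57.3 and 41.6 CPM in controls, a log2 value of 1.11 (SE 0.17, edgeR adjusted p = 0.0148). The 11 other galactose and nucleotide sugar enzymes tested were not called.

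Fdxr, the ferredoxin reductase that passes electrons to mitochondrial ferredoxins, was at 20.4, 16.1 and 18.5 CPM in PCBP2 knockdown, 8.46, 9.33 and 8.14 CPM in PCBP1 knockdown and 21.65, 23.3 and 18.3 CPM in controls. The PCBP1 values were tightly grouped and below every other library, and the log2 value was 1.08 (SE 0.11, edgeR adjusted p = 0.00365). The other higher genes chosen by size were Col11a2, a fibrillar collagen chain (1.17), Emc10, a subunit of the membrane protein insertion complex of the endoplasmic reticulum (1.14), the noncoding gene Gm43634 (1.09), Cracr2a, a calcium-sensing regulator of store-operated calcium entry (1.05), Pdgfb, a growth factor chain (1.04), and Ydjc (1.00). Their adjusted p-values by edgeR ran from 0.011 to 0.0359. Gm43634 lies within Cracr2a on the same strand, so reads could be split between them. Tmem143, a mitochondrial membrane protein, was below this level limit with a larger value, at 5.30, 4.27 and 2.35 CPM in PCBP2 knockdown, 0.8135, 1.08 and 0.6985 CPM in PCBP1 knockdown and 6.785, 4.31 and 4.095 CPM in controls (2.21, SE 0.31, edgeR adjusted p = 0.011), and was chosen after its values were seen.

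**Figure D3:**
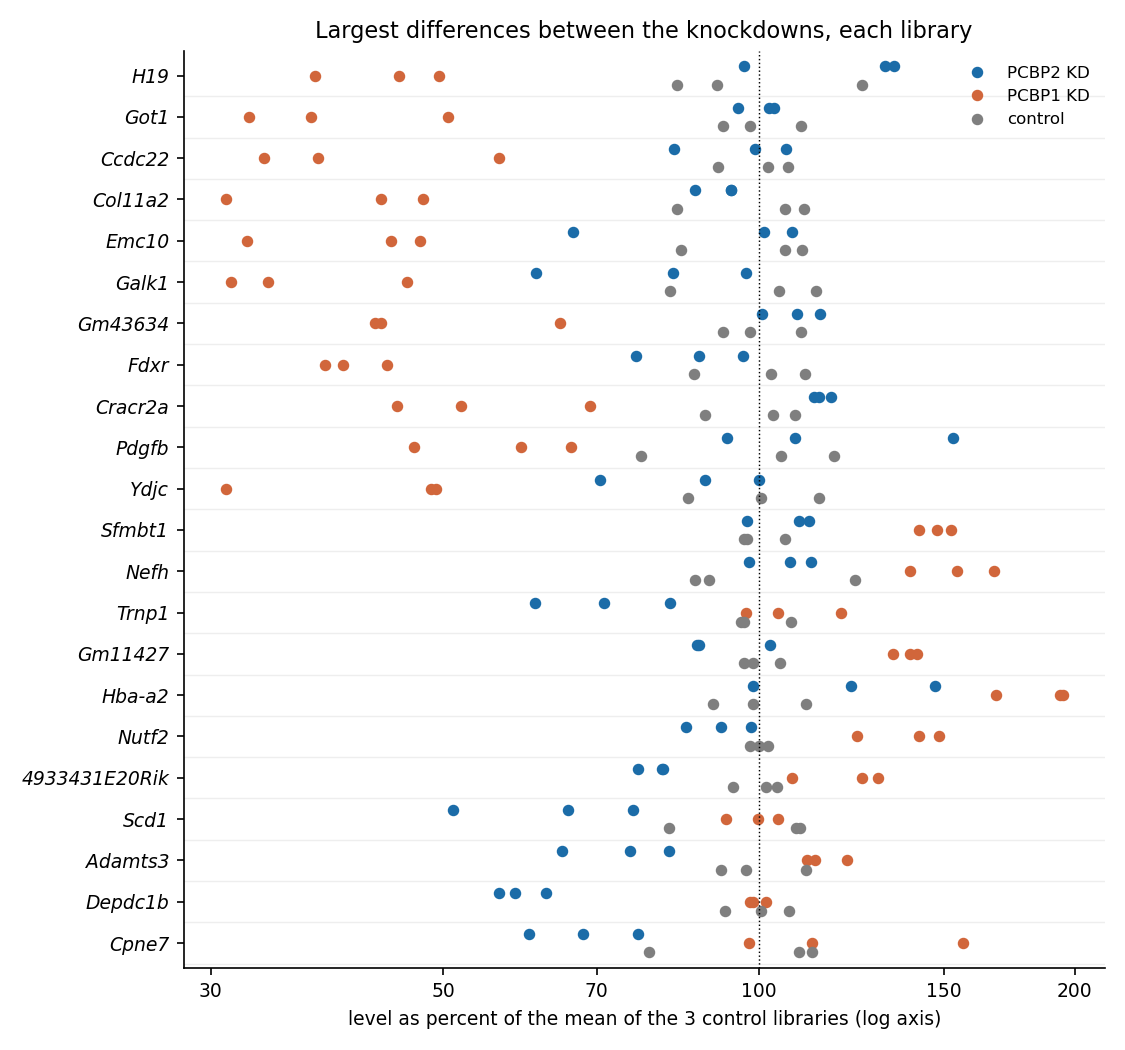
Levels in each library as a percent of the mean of the 3 control libraries, on a log axis, for the 11 genes higher and 11 genes lower in PCBP2 knockdown with the largest differences above a mean log2 CPM of 2, without the 2 hairpin targets. Blue is PCBP2 knockdown, orange PCBP1 knockdown and grey control. For the top 11 genes, the orange points lie to the left of the grey ones. Among the bottom 11, the orange points lie to the right of the grey ones for some genes, such as Hba-a2, and the blue points lie to the left for others, such as Depdc1b.

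Genes of heme and iron metabolism were among those with higher levels in PCBP2 knockdown, though most members of each list were not called. The gene lists were drawn up with earlier results of these data known. Counts of called members therefore describe the lists and give no independent support. Of 17 heme synthesis genes, 2 were higher in PCBP2 than in PCBP1 knockdown and none was lower, against 1.04% higher of all genes tested. The list median was 0.15 against 0.00 over all genes. Alad, the second enzyme of heme synthesis, was at 500, 423 and 574 CPM in PCBP2 knockdown, 257, 374 and 310 CPM in PCBP1 knockdown and 527, 527 and 474 CPM in controls (log2 0.67, SE 0.13, edgeR adjusted p = 0.0357). All 3 PCBP1 libraries were below the controls, hairpin 3 least so. Slc25a38, the mitochondrial carrier that supplies glycine for heme synthesis, was at 70.7, 62.4 and 73.7 CPM in PCBP2 knockdown, 50.1, 55.5 and 52.4 CPM in PCBP1 knockdown and 72.5, 70.3 and 64.4 CPM in controls (0.39, SE 0.08, edgeR adjusted p = 0.0354). Blvrb, biliverdin reductase B, was at 192, 141 and 187 CPM in PCBP2 knockdown, 93.9, 130 and 101 CPM in PCBP1 knockdown and 222, 241 and 205 CPM in controls. Its level was higher in PCBP2 than in PCBP1 knockdown by 0.68 (SE 0.13, edgeR adjusted p = 0.0354), and both knockdowns were below the controls. Blvrb was the 1 called gene of 8 for heme breakdown and export.

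Tfr2, a transferrin receptor that senses iron, was at 67.8, 58.45 and 63.5 CPM in PCBP2 knockdown, 49.3, 44.55 and 43.5 CPM in PCBP1 knockdown and 68.0, 68.9 and 63.7 CPM in controls. Its log2 value was 0.47 (SE 0.08, edgeR adjusted p = 0.0173), and 14 further genes of iron uptake, storage and ferritinophagy were not called. Fdxr was the 1 called gene of 21 for iron-sulfur cluster assembly and mitochondrial electron donors, against 1.04% higher of all genes tested. Of these 21, 18 had a value above 0. So did 18 of 21 erythroid transcription factors, 20 of 24 integrated stress response genes and 5 of 24 cholesterol synthesis genes. Among other processes, 39 of 52 ribosomal protein genes, 24 of 31 DNA replication genes and 7 of 23 interferon response genes had a value above 0. The share of all genes above 0 was not computed, so these counts set no list apart. Mt2, a metallothionein that binds metal ions, was at 833, 566 and 721 CPM in PCBP2 knockdown, 469, 481 and 475 CPM in PCBP1 knockdown and 888, 877 and 708 CPM in controls (0.57, SE 0.11, edgeR adjusted p = 0.0312). It belongs to no list and was chosen after its values were seen.

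Energy and carbon metabolism gave single called genes in several pathways. Of 18 genes of glycolysis and red cell energy, 3 were higher in PCBP2 than in PCBP1 knockdown and none was lower. Of all genes tested 1.04% were higher, and the list median was 0.05. This list too was drawn up with earlier results of these data known, so its count is only a description. Pklr, the pyruvate kinase of red cells, was at 454, 409.5 and 512.5 CPM in PCBP2 knockdown, 254, 321 and 292 CPM in PCBP1 knockdown and 502, 520.5 and 489 CPM in controls (log2 0.67, SE 0.09, edgeR adjusted p = 0.011). Slc2a1, the glucose transporter GLUT1, was higher by 0.42 (SE 0.07, edgeR adjusted p = 0.0148), and Hk1, the hexokinase of red cells, by 0.25 (SE 0.05, edgeR adjusted p = 0.0441). Slc2a1 was at 106% of the control mean in PCBP2 knockdown and 78.9% in PCBP1 knockdown. Hk1 was at 99.5% and 83.8%, in the same order. Shmt2, which makes glycine from serine in mitochondria, was the 1 called of 17 one-carbon genes. It was at 525, 449 and 502 CPM in PCBP2 knockdown, 347, 384 and 353 CPM in PCBP1 knockdown and 587.5, 587 and 470.5 CPM in controls (0.45, SE 0.07, edgeR adjusted p = 0.0123). Got1 was the 1 called of 18 genes of the malate-aspartate shuttle and aspartate metabolism.

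Further metabolic genes outside the lists, named after their values were seen, had the same direction. Idh2, the mitochondrial NADP-dependent isocitrate dehydrogenase, was at 89.2, 84.7 and 87.0 CPM in PCBP2 knockdown, 57.2, 65.7 and 60.3 CPM in PCBP1 knockdown and 89.5, 90.9 and 89.0 CPM in controls. PCBP2 knockdown and controls were within a few CPM of each other, and all PCBP1 libraries lay below both. The log2 value of Idh2 was 0.51 (SE 0.06, edgeR adjusted p = 0.00716). Gss, glutathione synthetase, had 0.50 (SE 0.06), Slc19a1, the reduced folate carrier, 0.56 (SE 0.09) and Nadsyn1, NAD synthetase, 0.63 (SE 0.11), with edgeR adjusted p-values from 0.00716 to 0.0215.

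Other lists with a called gene were those of the erythroid programme and of stress. Among 21 erythroid transcription factors only E2f2, a cell cycle transcription factor, was called, at 154.5, 148 and 153 CPM in PCBP2 knockdown and 132.5, 128 and 122 CPM in PCBP1 knockdown (log2 0.25, SE 0.05, edgeR adjusted p = 0.0466). Sptb, erythroid beta spectrin, was the 1 called of 23 genes of the red cell membrane and skeleton, at 977, 954 and 1001 CPM in PCBP2 knockdown and 827, 831 and 781 CPM in PCBP1 knockdown (0.27, SE 0.05, edgeR adjusted p = 0.0261). Atf3, a stress-induced transcription factor, was the 1 called of 24 genes of the integrated stress response, at 24.6, 23.1 and 21.85 CPM in PCBP2 knockdown and 17.3, 15.04 and 17.4 CPM in PCBP1 knockdown (0.48, SE 0.09, edgeR adjusted p = 0.0331). Of 12 tested genes for intermediate filaments and collagens, 3 were higher in PCBP2 than in PCBP1 knockdown (against 1.04% of all genes tested). These were Col18a1 (0.64, SE 0.08), Col11a2 and Gfap, the last at 0.64 to 1.94 CPM. As with the other lists, earlier results of these data were known when this one was made, so its count gives no independent support.

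The lower genes at such levels had smaller differences, Pcbp2 apart. Among genes of lower level, Gm29397 (-2.53), Gm14002 (-2.28), Gm20521 (-1.95) and Dnhd1 (-1.31) also differed by at least 1, all at 0.03 to 4.23 CPM in the knockdowns, and were named after their values were seen. Depdc1b, a protein with a RhoGAP-like domain that is known to act at mitotic entry, was at 15.2, 16.2 and 14.65 CPM in PCBP2 knockdown, 26.3, 25.6 and 25.45 CPM in PCBP1 knockdown and 26.0, 27.7 and 24.0 CPM in controls. Its PCBP2 knockdown libraries lay below all others, while PCBP1 knockdown and controls overlapped. Depdc1b fell by 0.75 (SE 0.08, edgeR adjusted p = 0.00365), the 1 called of 18 genes of the CDC25, WEE1 and mitotic entry list. Scd1, the stearoyl-CoA desaturase that makes monounsaturated fatty acids, was at 192, 166.5 and 129 CPM in PCBP2 knockdown, 264, 235 and 253 CPM in PCBP1 knockdown and 277, 275 and 208 CPM in controls. It fell by 0.62 (SE 0.11, edgeR adjusted p = 0.0275), with every PCBP2 library below the controls. Adamts3, a procollagen-processing protease (-0.63), and Trnp1, a nuclear regulator of proliferation (-0.58), were also below the controls in all 3 PCBP2 libraries.

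For others the PCBP1 knockdown was the group away from the controls. Nutf2, a Ran-GDP import factor, was at 14.3, 13.2 and 15.3 CPM in PCBP2 knockdown, 19.3, 23.1 and 22.1 CPM in PCBP1 knockdown and 15.25, 15.5 and 15.9 CPM in controls (log2 -0.59, SE 0.10, edgeR adjusted p = 0.0201). Sfmbt1, a chromatin protein with MBT repeats, was at 25.9, 29.0 and 29.7 CPM in PCBP2 knockdown, 39.2, 40.5 and 37.7 CPM in PCBP1 knockdown and 25.7, 25.9 and 28.1 CPM in controls (-0.47, SE 0.08, edgeR adjusted p = 0.0171). The PCBP1 libraries of both genes were above every other library. Nefh, a neurofilament chain (-0.54), and the pseudogene Gm11427 (-0.58) had the same arrangement. Cpne7, a copine (-0.84), and the antisense gene 4933431E20Rik (-0.61) complete the genes chosen by size. Reads of an antisense gene and its partner cannot be told apart where counting ignores strand.

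Hba-a2, an alpha-globin gene, was at 37.6, 56.0 and 46.7 CPM in PCBP2 knockdown, 64.1, 74.3 and 73.7 CPM in PCBP1 knockdown and 37.6, 34.5 and 42.2 CPM in controls (log2 -0.59, SE 0.12, edgeR adjusted p = 0.0441). Its near-identical copy Hba-a1 was at 981, 699 and 1359 CPM in PCBP2 knockdown, 821.5, 776 and 1073 CPM in PCBP1 knockdown and 1164, 1456 and 1134 CPM in controls (0.18, SE 0.19), with overlapping groups. Reads can be split either way between the copies, so the call on Hba-a2 alone is uncertain. None of the 5 other genes tested from the list of globins and Ahsp was called.

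Single genes known from transcription, translation and splicing were lower. Polr2a, the largest subunit of RNA polymerase II, was at 306, 313 and 287 CPM in PCBP2 knockdown, 385, 404 and 382.5 CPM in PCBP1 knockdown and 374, 350.0 and 370 CPM in controls. It fell by 0.37 (SE 0.05, edgeR adjusted p = 0.011), with the PCBP2 libraries below the controls and the PCBP1 libraries above them. Eif4g2, an eIF4G-like translation factor, was at 1508, 1597 and 1544 CPM in PCBP2 knockdown and 1794, 1963 and 2083 CPM in PCBP1 knockdown (-0.33, SE 0.06, edgeR adjusted p = 0.0261). U2af2, the large subunit of the factor that recognises the polypyrimidine tract at 3′ splice sites, was at 332, 299 and 338 CPM in PCBP2 knockdown, 383, 383 and 416 CPM in PCBP1 knockdown and 368, 384 and 385 CPM in controls. It fell by 0.29 (SE 0.06, edgeR adjusted p = 0.0478), as the 1 called of 40 splicing factors and hnRNPs, whose median was 0.02. Polr2a and Eif4g2 were chosen after their values were seen.

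A list of 24 genes of mRNA export through the TREX complex and of cap binding, drawn up after the values were seen, held 5 lower genes and no higher one, against 0.234% lower of all genes tested, with a median of -0.01. Besides U2af2 these were Thoc3, a THO subunit, Alyref, the export adaptor, Fyttd1, another adaptor, and Ncbp2, the small cap-binding subunit. Thoc3 was at 87.9, 88.2 and 85.8 CPM in PCBP2 knockdown, 102.3, 104.4 and 108.2 CPM in PCBP1 knockdown and 81.3, 80.9 and 88.9 CPM in controls (log2 -0.27, SE 0.05, edgeR adjusted p = 0.0357). In this gene the PCBP1 knockdown was above the controls, which overlapped the PCBP2 knockdown. Fyttd1 (-0.25), Ncbp2 (-0.25) and Alyref (-0.28) had adjusted p-values by edgeR of 0.0449 to 0.049, close to the threshold. Because this list was made from the called genes, its count describes them and supports nothing.

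Several processes gave no called gene. Among 24 cholesterol synthesis genes none passed, with a median of -0.11 and only 5 values above 0; Msmo1 had -0.24 (edgeR adjusted p = 0.086) and Hsd17b7 -0.20 (0.17). None of 24 mitosis and cytokinesis genes passed, where Incenp had 0.17 and Aurkb 0.18, and none of 31 DNA replication genes, where Pold1 had 0.56 (edgeR adjusted p = 0.0599) and Mcm7 0.13. The same held for 19 CDK inhibitors and p53 targets (Cdkn1c 0.84 with an SE of 0.31, Mdm2 -0.13) and for 52 ribosomal protein genes (Rpl28 0.20, Rpl18 0.24). It also held for 23 interferon response genes (Xaf1 -0.65, Irf1 -0.27) and for 20 progenitor and early hematopoietic genes (Kit 0.22, Lyl1 0.37). Such values do not show that the groups are alike, and 2138 of all genes had an unadjusted p under 0.05.

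A call in every alternative processing and without each single library was kept by 12 genes, 10 of them higher and 2 lower. Among them were Got1, H19, Fdxr, Dhrs11, Myh7b, Top3a, Rbck1, Kcnd1 and Fgf15, and in the lower direction Pcbp2 and Depdc1b. Rbck1, a subunit of the linear ubiquitin ligase complex, was at 124, 107 and 129 CPM in PCBP2 knockdown, 60.2, 77.6 and 66.4 CPM in PCBP1 knockdown and 132, 141 and 127 CPM in controls (0.82, SE 0.10, edgeR adjusted p = 0.00539). Top3a, a type IA topoisomerase, was at 39.0, 38.99 and 40.5 CPM in PCBP2 knockdown, 26.7, 24.97 and 26.7 CPM in PCBP1 knockdown and 30.7, 30.1 and 27.8 CPM in controls (0.60, SE 0.07, edgeR adjusted p = 0.00539). Here the PCBP2 knockdown was above and the PCBP1 knockdown below the controls.

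The base composition of the transcripts moved with these differences. GC content was taken from the longest annotated transcript of each gene. Its median was 55.7% among the higher genes, 47.0% among the lower ones and 48.9% over all genes tested. In the fifth of genes richest in GC the median log2 fold change was 0.10 with 94 genes higher, and in the fifth poorest in GC it was -0.04 with 4 higher. Taken over genes, which share libraries and are no independent replicates, the Spearman correlation of GC content and log2 fold change was 0.255. With this trend removed, 106 of the 160 higher and 26 of the 36 lower genes were still called, and the median log2 value of the higher genes was 0.47. Among the genes named here, Pdgfb, E2f2, Sptb, Hk1, Gfap, Fyttd1, Ncbp2, Alyref and Rbm3 were not called then.

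Splicing was compared through the authors' deposited tables of local splicing variations, in which each entry groups the alternative junctions, and any retained intron, that share one exon. The tables give 1 expected percent spliced in (PSI) per junction for the pooled libraries of a group, so the differences below have no replicate check and no test. Of 119719 variations in 9944 genes with the same junctions in both tables, 520 in 433 genes (0.434%) held a junction whose PSI differed by at least 20 percentage points between the knockdowns. For 333 of the 520, the PCBP2 knockdown was nearer the controls at the junction that differed most, and for 187 the PCBP1 knockdown was. The share over all 119719 variations was not computed, so these counts do not set the 520 apart from the rest. That junction differed from control by at least 20 points in PCBP1 knockdown for 217 variations and in PCBP2 knockdown for 90. In the authors' deposited tables the probability of a change of at least 0.20 against control was above 0.95 for 44 of these junctions in PCBP1 knockdown, for 5 in PCBP2 knockdown and for none in both.

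The largest differences ran both ways, with some junctions used more in PCBP1 knockdown and others used less. In Rpusd1, a pseudouridine synthase gene on chromosome 17, the junction from 25727847 to 25728523 had a PSI of 10.1% in PCBP2 knockdown, 63.9% in PCBP1 knockdown and 23.8% in controls. In Pik3cg, the catalytic subunit of a phosphoinositide 3-kinase, a junction on chromosome 12 from 32205998 to 32208162 had 19.5%, against 71.5% in PCBP1 knockdown and 33.4% in controls. For Gtf2ird1, a transcription factor gene, the junction on chromosome 5 from 134382586 to 134382781 had 82.6% in PCBP2 knockdown, 26.6% in PCBP1 knockdown and 72.7% in controls. Tcf3, which codes for the E proteins E12 and E47, had a junction on chromosome 10 from 80410274 to 80413205 at 12% in PCBP2 knockdown, 57.1% in PCBP1 knockdown and 12.1% in controls. The other genes chosen by size were Dmtn, Tcof1, Dynlt1c, Aars2, Ctsa and Adamts14, the last at a mean of only 0.935 CPM. Rpusd1 was at a mean of 8.34 CPM. For Dynlt1c the authors' probability of a change of at least 0.20 against control was low in both knockdowns. It was 0.0376 in PCBP2 knockdown and 0.0452 in PCBP1 knockdown. For Ctsa it was 0.00214 in PCBP2 knockdown and 0.603 in PCBP1 knockdown. The other genes of this paragraph had a junction above 0.95 in PCBP1 knockdown. The authors' expected change against control can differ from the plain PSI difference. The Dynlt1c junction had 30.1% in PCBP2 knockdown, 73.3% in PCBP1 knockdown and 55.2% in controls, but expected changes of only -5.0 and 0.4 points. A Dmtn junction had 28.5% in PCBP2 knockdown and 14.1% in controls, with an expected change of -0.4 points.

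Cassette exons, which are either included between their neighbours or skipped, were counted separately. Inclusion was computed from pairs of an inclusion and a skipping junction, and 2754 exons in 2174 genes could be read from both flanking exons. Inclusion differed by at least 20 points for 41 of them (1.49%). It was that much less in PCBP1 knockdown for 33 exons (1.2%), and that much less in PCBP2 knockdown for 8 (0.29%). For 28 of the 33 the PCBP2 knockdown was nearer the controls, and for 4 of the 8 the PCBP1 knockdown was. The shares over all 2754 exons were not computed. Exons just inside this size were those of Gm15545 (20.1 points) and Spire2 (20.4), and just outside it those of Polr2c (19.4) and Tnk2 (19.3). The authors' probability of a change of at least 0.20 against control varied among the 41. It was high for some exons, such as that of Ehmt2 (0.998 in PCBP1 knockdown). For others it was low in both knockdowns, such as Kctd20 (0.019 in PCBP2 and 0.00045 in PCBP1 knockdown) and Brat1 (0.052 and 0.000458).

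Exons with less inclusion in PCBP1 knockdown included those of Aars2, Ehmt2, Pcyt2 and Dmtn. Aars2 is the mitochondrial alanyl-tRNA synthetase, Ehmt2 the histone H3 lysine 9 methyltransferase G9a, Pcyt2 the rate-limiting enzyme of phosphatidylethanolamine synthesis, and Dmtn the red cell skeleton protein dematin. The Aars2 exon (GRCm38, chr17:45517912-45518021, plus strand) was included at 96.1% in PCBP2 knockdown, 57.4% in PCBP1 knockdown and 96.1% in controls. The Ehmt2 exon (chr17:34911363-34911478, plus strand) was included at 95.6% in PCBP2 knockdown, 61.2% in PCBP1 knockdown and 94.6% in controls. The Pcyt2 exon (chr11:120613030-120613083, minus strand) was included at 56.5% in PCBP2 knockdown, 24.9% in PCBP1 knockdown and 57.6% in controls. For the Dmtn exon (chr14:70617955-70618029, minus strand) inclusion was 83.0% in PCBP2 knockdown, 52.9% in PCBP1 knockdown and 91.1% in controls. In all 4, the PCBP2 knockdown value was the one nearer the controls.

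Less inclusion in PCBP2 knockdown was seen for exons of Runx1 and Sidt2. Runx1 is a transcription factor of blood stem and progenitor cells, and Sidt2 a lysosomal membrane protein. The Runx1 exon (chr16:92644154-92644345, minus strand) was included at 36.9% in PCBP2 knockdown, 65.9% in PCBP1 knockdown and 64.3% in controls, so that PCBP2 knockdown was the group away from the controls. The Sidt2 exon (chr9:45947629-45947697, minus strand) was included at 28.4% in PCBP2 knockdown, 62.8% in PCBP1 knockdown and 31.3% in controls, so that the PCBP1 knockdown stood apart. These 6 exons, all fully coding, are printed with every run of CCC in capitals, because PCBPs bind C-rich RNA. They hold more CCC per base than most cassette exons, so they do not stand for the whole set. They are read from the GENCODE M21 transcripts of GRCm38, 5′ to 3′ on the transcript strand.
Aars2: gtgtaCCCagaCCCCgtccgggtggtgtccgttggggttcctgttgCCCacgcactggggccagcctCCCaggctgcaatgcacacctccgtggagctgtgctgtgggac
Ehmt2: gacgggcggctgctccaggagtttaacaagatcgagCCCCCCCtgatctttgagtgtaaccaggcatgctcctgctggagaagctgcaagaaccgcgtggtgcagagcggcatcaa
Pcyt2: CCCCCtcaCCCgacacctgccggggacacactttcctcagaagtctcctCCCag
Dmtn: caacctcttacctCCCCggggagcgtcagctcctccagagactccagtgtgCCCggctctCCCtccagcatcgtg
Runx1: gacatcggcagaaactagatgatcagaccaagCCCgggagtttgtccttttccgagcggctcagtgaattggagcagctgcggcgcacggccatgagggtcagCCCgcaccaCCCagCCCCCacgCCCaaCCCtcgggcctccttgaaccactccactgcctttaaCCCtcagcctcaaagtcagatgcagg
Sidt2: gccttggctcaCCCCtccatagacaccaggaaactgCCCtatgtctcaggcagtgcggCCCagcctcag

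Counting overlapping matches on the transcript strand, the Runx1 exon held 9 matches of CCC in 192 bases, the Aars2, Ehmt2 and Pcyt2 exons 5 each in 110, 116 and 54 bases, and the Dmtn and Sidt2 exons 4 each in 75 and 69 bases. CCC was present in 78.8% of the 33 exons with less inclusion in PCBP1 knockdown, in 75.0% of the 8 with less inclusion in PCBP2 knockdown and in 69.2% of all 2754, which differ in length. On the other strand (GGG) the shares were 81.8%, 62.5% and 67.5%. The median share of C was 26.7% in the 33 exons, 32.6% in the 8 and 24.0% in all. Per 100 bases the printed exons held 4.31 to 9.26 matches of CCC. The medians were 1.64 in the 33 exons, 3.56 in the 8 and 1.2 in all. Other exons with large differences held fewer, such as that of Tcof1 (38.9 points, PCBP2 minus PCBP1 knockdown) with 2.08. Those of Phtf1 (33.9 points) and 2610015P09Rik (-32.3 points) held none. The U2af2 exon (chr7:5067210-5067254, plus strand), which holds no CCC, was included at 97.6% in PCBP2 knockdown, 74.9% in PCBP1 knockdown and 94.5% in controls. The letters describe these exons and do not show binding, and the introns beside them were not analysed here.

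**Figure D4:**
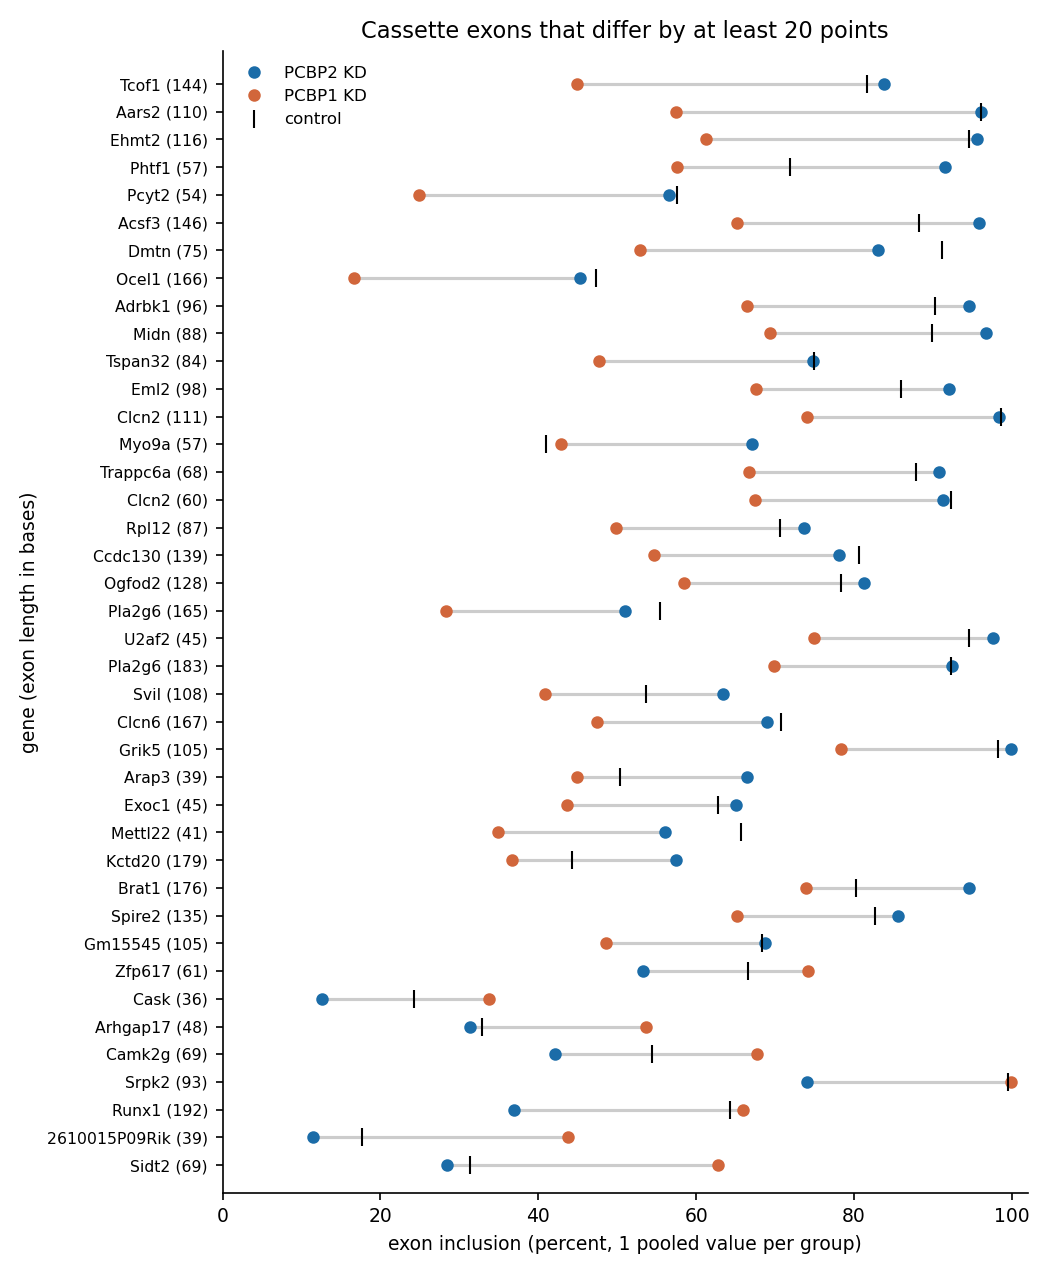
Inclusion in percent, 1 pooled value per group, for 40 of the 41 cassette exons that differ by at least 20 points, labelled with the gene and the exon length in bases. Blue is PCBP2 knockdown, orange PCBP1 knockdown and the black tick control. The upper 32 exons have the orange point on the left, mostly with the tick near the blue point, and the lower 8 have the blue point on the left.

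The rest of the 41 exons covered varied genes. The exon with the largest difference was that of Tcof1, a nucleolar protein of ribosome biogenesis, included at 83.8% in PCBP2 knockdown, 44.9% in PCBP1 knockdown and 81.7% in controls. Clcn2, a chloride channel, had 2 exons with less inclusion in PCBP1 knockdown, as did Pla2g6, a calcium-independent phospholipase. One of the Clcn2 exons was included at 91.3% in PCBP2 knockdown, 67.4% in PCBP1 knockdown and 92.3% in controls. Srpk2, a kinase of SR splicing factors, had an exon included at 74.1% in PCBP2 knockdown, 99.9% in PCBP1 knockdown and 99.5% in controls. Of the 33 exons 19 had a length that is a multiple of 3, as did 7 of the 8 and 47.5% of all cassette exons.

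Retained introns differed by at least 20 points at 21 of 18238 introns, 10 with more retention in PCBP2 knockdown (0.0548%) and 11 with less (0.0603%). Btbd2, a BTB-domain protein, had 3 of the 10. Its intron on chromosome 10 from 80647877 to 80648560 was retained at 38.7% in PCBP2 knockdown, 0.7% in PCBP1 knockdown and 0.4% in controls. The level of the gene was low in both knockdowns, at 3.54, 3.86 and 4.25 CPM in PCBP2 knockdown, 5.86, 7.615 and 5.38 CPM in PCBP1 knockdown and 11.99, 9.99 and 11.4 CPM in controls (log2 -0.69, SE 0.16, edgeR adjusted p = 0.0677). St14, a membrane serine protease at a mean of only 4.03 CPM, had 2 introns retained at 25.4% and 25.5% in PCBP2 knockdown. They were retained at most at 0.9% in PCBP1 knockdown and at 0.6% and 1.0% in controls. The authors' probability of a change of at least 0.20 in PCBP2 knockdown was 0.629 and 0.536. In the other direction, an intron of Rnaseh2a, the catalytic subunit of RNase H2, was retained at 0.3% in PCBP2 knockdown, 40.5% in PCBP1 knockdown and 0.5% in controls (chromosome 8, 84969670 to 84969722). An intron of Myh7b, a myosin heavy chain, was retained at 1.0%, against 29.0% in PCBP1 knockdown and 1.6% in controls. In Wdr31, at a mean of 6.19 CPM, the PCBP1 knockdown stood apart by its absence. Retention was 39.7% in PCBP2 knockdown, 0.6% in PCBP1 knockdown and 39.9% in controls.

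Values for each library were obtained from the estimated levels of annotated transcripts, as the share that carries a junction among transcripts that carry any junction of the same variation. Of 41 cassette exons, 24 had at least 1 such share, with 52 shares in all, since an exon can have several junctions. In 50 of the 52 the difference had the direction of the pooled PSI, and the exceptions were a share of Midn and a share of Cask. The 3 PCBP2 and 3 PCBP1 libraries did not overlap in 36 of the 52 shares (69.2%), against 12.1% of all 28561 shares tested, and in 13 of the 24 exons this held for every share of the exon. None of them was called by limma, and the exons had been chosen on pooled values of the same libraries, so this is a description and not an independent check. The inclusion share of the Ehmt2 exon was 92.3%, 94.7% and 92.6% in PCBP2 knockdown, 80.1%, 85.5% and 80% in PCBP1 knockdown and 95%, 96.9% and 96.2% in controls (limma adjusted p = 0.253). All PCBP1 libraries were below the rest, hairpin 3 least so. The Pcyt2 exon had 79.8%, 71.3% and 79.8% in PCBP2 knockdown, 59.1%, 60.9% and 62.3% in PCBP1 knockdown and 79.8%, 83.4% and 74.6% in controls (limma adjusted p = 0.408).

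Sidt2 showed the other direction in every library, with 17.1%, 17.2% and 21.1% in PCBP2 knockdown, 32.2%, 31.3% and 30.6% in PCBP1 knockdown and 20.5%, 19.6% and 16.5% in controls (limma adjusted p = 0.29). For Runx1 the transcript-based shares were much closer than the pooled values, at 59.6%, 53.8% and 55.9% in PCBP2 knockdown, 59.7%, 59.6% and 60.5% in PCBP1 knockdown and 59.2%, 59.7% and 59.5% in controls (limma adjusted p = 0.819). The difference of 29.0 points (36.9% against 65.9%) in the pooled inclusion of this exon was therefore not matched in size by the transcript estimates.

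**Figure D5:**
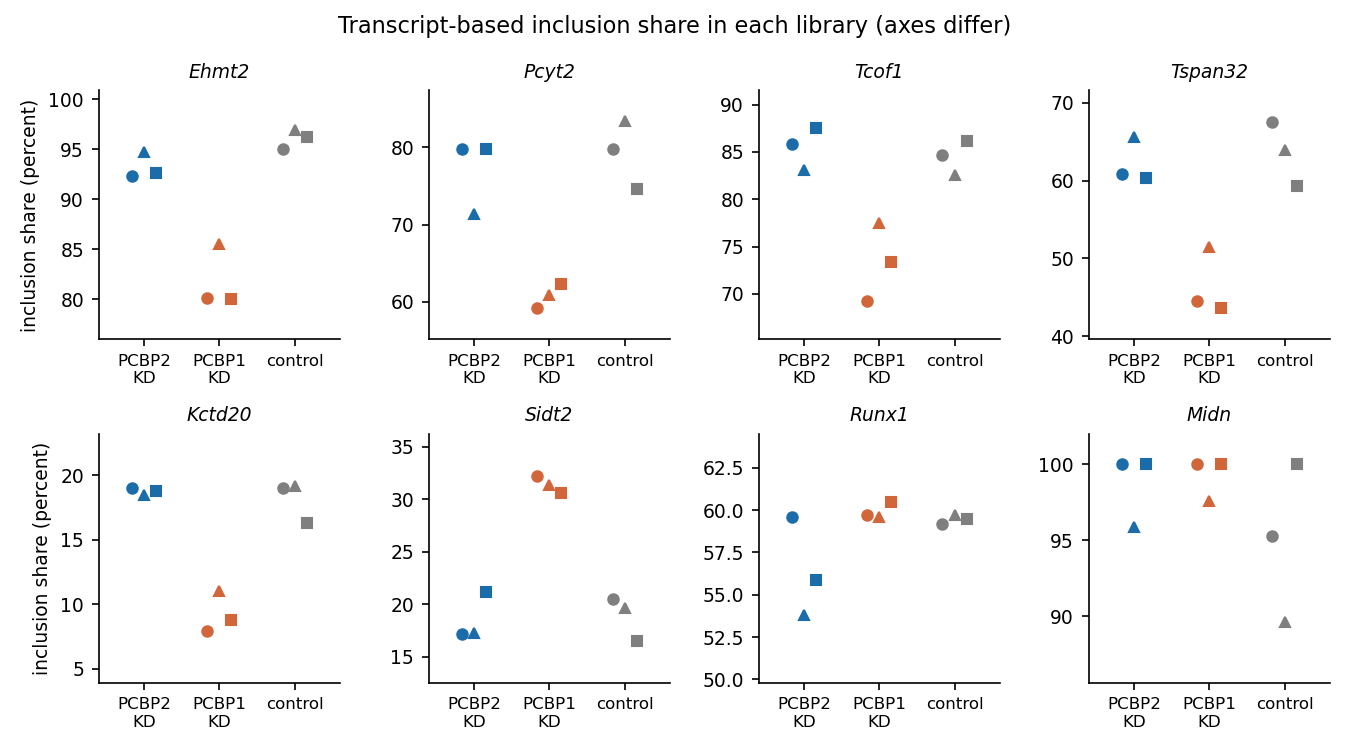
Transcript-based inclusion share in percent for 8 cassette exons, in each library of PCBP2 knockdown (blue), PCBP1 knockdown (orange) and controls (grey), with axes that differ between panels and do not start at 0. Circles are hairpin 1 or the first scrambled control, triangles hairpin 3 or the second scrambled control, and squares hairpin 4 or the luciferase control. The orange points lie below the blue ones for Ehmt2, Pcyt2, Tcof1, Tspan32 and Kctd20 and above them for Sidt2, while the points of Runx1 lie within 53.8% to 60.5% and those of Midn overlap.

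Over all 28561 shares, limma called 4 (0.014%), with 2078 at an unadjusted p under 0.05. Elp6 was higher in PCBP2 knockdown, and Mpdu1, Hdgf and Sp110 were lower. In each of them the share was exactly 0% or 100% in all 3 libraries of a knockdown, so the log ratio depends on the pseudocount, and none was called with a pseudocount of 0.5 TPM. The Elp6 junction share was 100% in every PCBP2 library, 93.9%, 94.6% and 93.8% in PCBP1 knockdown and 98% to 100% in controls, while the pooled PSI of the same junction was 95.4% in PCBP2 knockdown and 98.7% in PCBP1 knockdown, the other way round.

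Differences in level and in splicing met in few genes. Of 173 called genes in the splicing tables, 15 (8.67%) also held a variation that differed by at least 20 points, against 4.35% of all 9695 tested genes in the tables, and these 15 were 3.55% of the 422 tested genes with such a variation. Of the 15, 13 were higher in PCBP2 knockdown, as were 160 of all 196 called genes. Ehmt2 was at 95.8, 83.3 and 100.7 CPM in PCBP2 knockdown, 43.6, 64.1 and 49.4 CPM in PCBP1 knockdown and 103, 110 and 95.7 CPM in controls (log2 0.83, SE 0.12, edgeR adjusted p = 0.0123), beside the 116-base exon printed above, whose length is not a multiple of 3. Myh7b, higher by 0.78 (SE 0.08), held the intron retained in PCBP1 knockdown. U2af2 was one of the 2 lower genes among the 15, the other being Rbm3, a cold-induced RNA-binding protein (-0.22, SE 0.05, edgeR adjusted p = 0.0462).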

How the data were processed

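Per the labels, total RNA of Day 0 cells was sequenced after TruSeq library preparation. The submitters' processing notes name FastQC 0.11.9, Trim Galore 1.46.0, STAR 2.5.3a, SAMtools 1.9 and Salmon 0.11.3 with GRCm38. Per the file headers, the authors deposited estimated counts and effective lengths per transcript from Salmon, and separate tables of local splicing variations with 1 expected PSI per pooled group. The tool behind these splicing tables is not given in the sources used here.

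Here, estimated counts were summed to 46167 genes through GENCODE M21 identifiers and rounded. Of 111706 transcripts 1303 had no match, and they held 0.479% to 0.579% of the reads. The 3 PCBP2 and 3 PCBP1 libraries were compared with edgeR 4.0.16 (R 4.3.3), with TMM scaling, filterByExpr, the quasi-likelihood F test and Benjamini-Hochberg adjustment over all genes tested, and a gene was called at an adjusted p under 0.05. Replicates differed by far more than sampling noise, with a chi-square per gene of 8.35 to 25.6.

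A splicing difference was counted at 20 percentage points, where the controls of both tables were within 5 points. Cassette exons needed an inclusion and a skipping junction that together made up at least 80 points, from both flanking exons. Transcript shares were computed as log2 ratios of TPM, made from the estimated counts and effective lengths, with a pseudocount of 0.1 TPM and a minimum sum of 1 TPM, and tested with limma 3.58.1.

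Genes chosen by size were up to 12 called genes in each direction with the largest fold change and a mean log2 CPM of at least 2, besides up to 4 called members of each list. The members and gene lists were chosen with earlier results of these data known. Sequences come from the GENCODE M21 transcripts. Alternatives were other scaling, filters, libraries, a GC trend, a replicate block, DESeq2 1.42.0 and leaving out each library. The 9 libraries of Day 2 entered an alternative only, and introns beside the exons were not analysed here.
Some genes are not reported here.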

Additional observations from a re-analysis of the deposited data

How the results depend on the processing

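Against 160 genes higher and 36 lower in PCBP2 knockdown, DESeq2 called 411 and 145, no filter on low counts 599 and 209, a fit over 18 libraries 46 and 3, and a fit over the 9 Day 0 libraries 203 and 57. Leaving out 1 library gave 13 to 360 higher and 4 to 48 lower. DESeq2 size factors (159 and 37), library totals (143 and 41) and removal of the GC trend (116 and 46) stayed within 1.5 times. The replicate number names different hairpins in each knockdown, and deviations of same-numbered libraries correlated by only 0.011 to 0.084, not always best with their own number, so the libraries were not treated as pairs. A replicate block gave 190 and 54, and a replicate block with the GC trend removed 148 and 71. Of the 4 called transcript shares, 0 were called with a pseudocount of 0.5 TPM, 0 with a replicate block and 0 without any single library, and 24 were called with 9 libraries. The 520 splicing variations became 3597 at 10 points and 93 at 30 points. With settings chosen after seeing the data, the 33 and 8 cassette exons with less inclusion in PCBP1 and in PCBP2 knockdown became 72 and 46 when seen from at least 1 flanking exon, 195 and 116 at 10 points, 7 and 2 at 30 points, and 21 (first number) at a gene level of at least 20 CPM. Pcbp3, at a log2 value of 0.004, changed sign with library totals (-0.008), the GC trend removed (-0.056), the replicate block (-0.032), both together (-0.099) and when libraries were left out (-0.177 to 0.226), and Pcbp4 with the GC trend removed, without or with the block (-0.039 in each). Without single libraries Hba-a1 ran from -0.08 to 0.394 and Tcof1 from -0.242 to 0.034. None of these 4 genes was called, and the cause of these changes was not tested. The pooled PSI tables hold no replicate values, and with 3 libraries per knockdown the test has 4 residual degrees of freedom, which limits what can be called.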

Other observations

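Some further genes outside the comparisons above are given as values. Kcnd1, a voltage-gated potassium channel subunit, was at 3.90, 3.23 and 2.89 CPM in PCBP2 knockdown, 0.651, 0.603 and 1.09 CPM in PCBP1 knockdown and 4.75, 4.80 and 4.47 CPM in controls (log2 2.08, SE 0.25, edgeR adjusted p = 0.00554). Fgf15, a secreted growth factor, was at 3.215, 4.51 and 3.36 CPM in PCBP2 knockdown, 1.11, 1.24 and 1.43 CPM in PCBP1 knockdown and 2.84, 2.40 and 3.09 CPM in controls (1.56, SE 0.20, edgeR adjusted p = 0.00862). Dhrs11, a short-chain dehydrogenase, was at 88.4, 82.0 and 94.5 CPM in PCBP2 knockdown, 47.5, 55.65 and 46.4 CPM in PCBP1 knockdown and 95.9, 95.6 and 78.6 CPM in controls (0.82, SE 0.08, edgeR adjusted p = 0.00337). All PCBP1 knockdown libraries of these 3 genes lay below every other library. Sbds, which acts in ribosome maturation, differed by 0.50 on the log2 scale (edgeR adjusted p = 0.00716), and Tet1, an enzyme of DNA demethylation, by 0.54 (edgeR adjusted p = 0.0359). Ccni, a cyclin family member, fell by 0.43 (edgeR adjusted p = 0.0183). The named genes in this paragraph were chosen after their values were seen.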
